A study of Mus musculus with 16 samples.

Results

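The genes described here are 36 genes of sterol and fatty acid synthesis, out of 53090 genes quantified in the series. They were chosen by symbol for their place in the pathway, with earlier results of these data known. They comprise 18 enzymes of cholesterol synthesis, 5 genes of sterol sensing and sterol transport, 11 genes of fatty acid synthesis and activation and 2 genes of sterol efflux. All 36 were found in every library. Bulk mRNA of WT and Aim2-/- mice was sequenced in 2 states. Naïve CD4+ T cells (Tn; CD44low CD62Lhigh) were selected from spleen with an immunomagnetic kit and not cultured, and the other cells were kept for 2 days (48 h) in Treg conditions, that is with antibodies to CD3 and CD28, recombinant human TGF-beta and recombinant mouse IL-2 (Treg). The Aim2-/- line lacks AIM2, a cytosolic DNA sensor, in every cell, and is on the C57BL/6 background. WT and Aim2-/- mice were cohoused after weaning and matched by sex and age, and the age itself is not given. Each of the 4 groups (WT Tn, Aim2-/- Tn, WT Treg and Aim2-/- Treg) had 4 libraries, numbered 1 to 4 in their titles. How many mice gave each library is not stated, so the p-values measure the spread between these libraries, part of which may be technical.

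Cells make cholesterol from acetyl-CoA through the mevalonate pathway, and fatty acids through acetyl-CoA carboxylase and fatty acid synthase, after which desaturases and elongases remodel the chains. Genes of both routes are transcribed by the SREBP factors (encoded by Srebf1 and Srebf2), which SCAP carries out of the endoplasmic reticulum when sterols are low and which INSIG proteins hold back when sterols are high. Sterol efflux through ABCA1 and ABCG1 is under a separate control, by the oxysterol-activated LXR factors. T cells leaving quiescence make membrane for growth and division, and lipid synthesis is one of the programmes known to be switched on at that stage.

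Library totals ranged from 22516424 to 34533316 counts, so that 3 counts, the floor used here, stood for 0.0869 to 0.126 CPM (counts scaled to library size with TMM factors), a floor that covers counting error only. Aim2 was lower in Aim2-/- than in WT libraries in Tn cells (log2 fold change of -2.24 ± 0.13 SE, edgeR adjusted p = 1.1e-05) and in Treg cells (-2.12 ± 0.13, edgeR adjusted p = 0.00013), without overlap in either state. The labels were also checked against summed marker levels. The 7 naïve T cell markers summed to between 4435 and 6171 CPM in Tn libraries and to between 678 and 1098 CPM in Treg libraries, and the 7 proliferation markers to between 321 and 425 CPM and between 4301 and 4812 CPM. The 8 activated and Treg markers summed to between 111 and 265 CPM in Tn and between 2073 and 2531 CPM in Treg libraries. Of these 8, 6 were called higher in WT culture (37.7% of genes tested). In Aim2-/- culture 6 were higher (39.1%) and 1 lower (40.2%). Among them Foxp3, the defining factor of Treg cells, was at 1.97 to 3.98 CPM in Tn and at 283 to 574 CPM in Treg libraries. The 7 T cell markers summed to less in Treg libraries, at 1885 to 2069 CPM, than in Tn libraries, at 3576 to 4178 CPM. Summed markers of B cells, myeloid cells, erythroid cells, CD8 T cells and NK cells stayed at or under 19.7 CPM in every library. In bulk RNA, a difference in the cells present and a difference in RNA per cell cannot be told apart.

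Promoters of 28 of the 36 genes were matched in RefSeq (GRCm38.p6, 250 bases before to 50 bases after each annotated start), which gave 36 windows because some genes have several starts. Abcg1, Stard4, Fdft1, Sqle, Scd1, Fads1, Scd2 and Fdps were not matched. CCAAT, the box bound by NF-Y, a partner of SREBP, was found on either strand in 24 of the 36 windows and in 22 of the 28 genes, against 37.4% of all 32851 promoter windows. TCACNCCAC, the letters of the sterol regulatory element, was found on either strand in 1 gene, Hmgcs1, against 1.24% of all windows. CACGTG, the E-box, was found in 7 windows of 6 genes, against 7.15% of all windows, and the DR4 element, to which LXR binds, in 0 windows, against 0.0152%. A match describes letters in the window and is not evidence of binding. The windows of 5 genes are shown because the results below turn on them: 2 enzymes of cholesterol synthesis that rose strongly (Hmgcs1 and Idi1), the sterol sensor that varied most among naïve libraries (Insig1), the fatty acid synthase that differed most clearly by genotype before adjustment (Fasn) and the gene that fell most (Acss2). Each is written 5′ to 3′ on the strand of the gene, with capitals marking CCAAT or its complement ATTGG, TCACCCCAC in Hmgcs1 and CACGTG in Insig1. The TCACCCCAC of Hmgcs1 began 137 bases before the start (-137), and in Fasn a CCAAT and an ATTGG overlap.
Hmgcs1, chr13:119690101-119690400, plus strand: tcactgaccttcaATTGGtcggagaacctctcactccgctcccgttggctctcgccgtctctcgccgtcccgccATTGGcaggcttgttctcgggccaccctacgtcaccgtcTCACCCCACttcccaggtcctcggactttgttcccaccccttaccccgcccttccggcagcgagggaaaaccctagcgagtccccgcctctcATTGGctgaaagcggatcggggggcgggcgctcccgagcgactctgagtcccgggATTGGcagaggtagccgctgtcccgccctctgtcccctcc
Idi1, chr13:8885356-8885655, plus strand: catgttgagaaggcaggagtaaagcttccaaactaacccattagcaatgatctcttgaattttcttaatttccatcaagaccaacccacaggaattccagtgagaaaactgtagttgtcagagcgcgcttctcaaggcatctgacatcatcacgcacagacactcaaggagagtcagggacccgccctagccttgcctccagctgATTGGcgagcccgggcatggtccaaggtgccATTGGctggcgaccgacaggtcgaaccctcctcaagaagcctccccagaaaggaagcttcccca
Insig1, chr5:28071162-28071461, plus strand: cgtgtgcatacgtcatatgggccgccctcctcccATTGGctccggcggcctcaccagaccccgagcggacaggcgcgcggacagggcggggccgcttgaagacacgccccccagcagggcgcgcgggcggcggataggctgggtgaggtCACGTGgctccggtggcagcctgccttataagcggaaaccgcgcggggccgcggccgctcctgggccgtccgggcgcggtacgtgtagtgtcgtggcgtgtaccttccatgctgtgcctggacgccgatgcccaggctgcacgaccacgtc
Fasn, chr11:120824498-120824797, minus strand: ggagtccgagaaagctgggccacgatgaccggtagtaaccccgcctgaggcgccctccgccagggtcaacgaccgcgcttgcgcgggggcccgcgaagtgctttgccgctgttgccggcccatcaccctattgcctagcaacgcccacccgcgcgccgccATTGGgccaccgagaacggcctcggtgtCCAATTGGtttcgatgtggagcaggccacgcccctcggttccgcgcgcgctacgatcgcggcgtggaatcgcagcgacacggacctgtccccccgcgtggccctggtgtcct
Acss2, chr2:155517793-155518092, plus strand: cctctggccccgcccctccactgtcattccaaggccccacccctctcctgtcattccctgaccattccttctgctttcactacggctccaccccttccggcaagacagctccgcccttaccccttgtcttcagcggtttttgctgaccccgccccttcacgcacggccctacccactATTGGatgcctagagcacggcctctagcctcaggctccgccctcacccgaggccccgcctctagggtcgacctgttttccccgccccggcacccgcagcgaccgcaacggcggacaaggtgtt

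Most of these genes were higher after culture in Treg conditions. In WT cells, 31 of the 36 genes were higher in Treg than in Tn libraries at an adjusted p under 0.05 (edgeR quasi-likelihood test, Benjamini-Hochberg over 13675 genes), against 37.7% of all genes tested, and 26 of them rose more than 2-fold, against 22.5%. Acss2 was lower, in a comparison where 39.2% of genes tested were lower, and Mvk, Tm7sf2, Insig1 and Abcg1 did not pass the test. The median log2 fold change of the 36 genes was 1.70, and that of all genes tested was -0.05. Groups did not overlap, with Treg higher, for 30 of the 36 genes, against 37.9% of genes tested. In Aim2-/- cells, 33 of the 36 genes were higher (39.1% of genes tested), with Acss2 and Tm7sf2 lower (40.2% of genes tested) and Abcg1 not called. There the median was 1.84, beside -0.04 for all 13713 genes tested. Scd1, Fads2 and Acsl6, nearly absent before culture, passed the filter through Treg libraries alone. They are also among the genes counted above as rising more than 2-fold and as not overlapping. Without them 28 of 33 genes were higher in WT cells (median 1.67) and 30 of 33 in Aim2-/- cells (median 1.70). The rise thus held in both genotypes, each compared with its own naïve libraries. It accompanied the rise of the proliferation markers given above, whose part in it was not tested. Since the genes were chosen with earlier results of these data known, these shares describe the list and are not a test of the pathways.

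**Figure D1:**
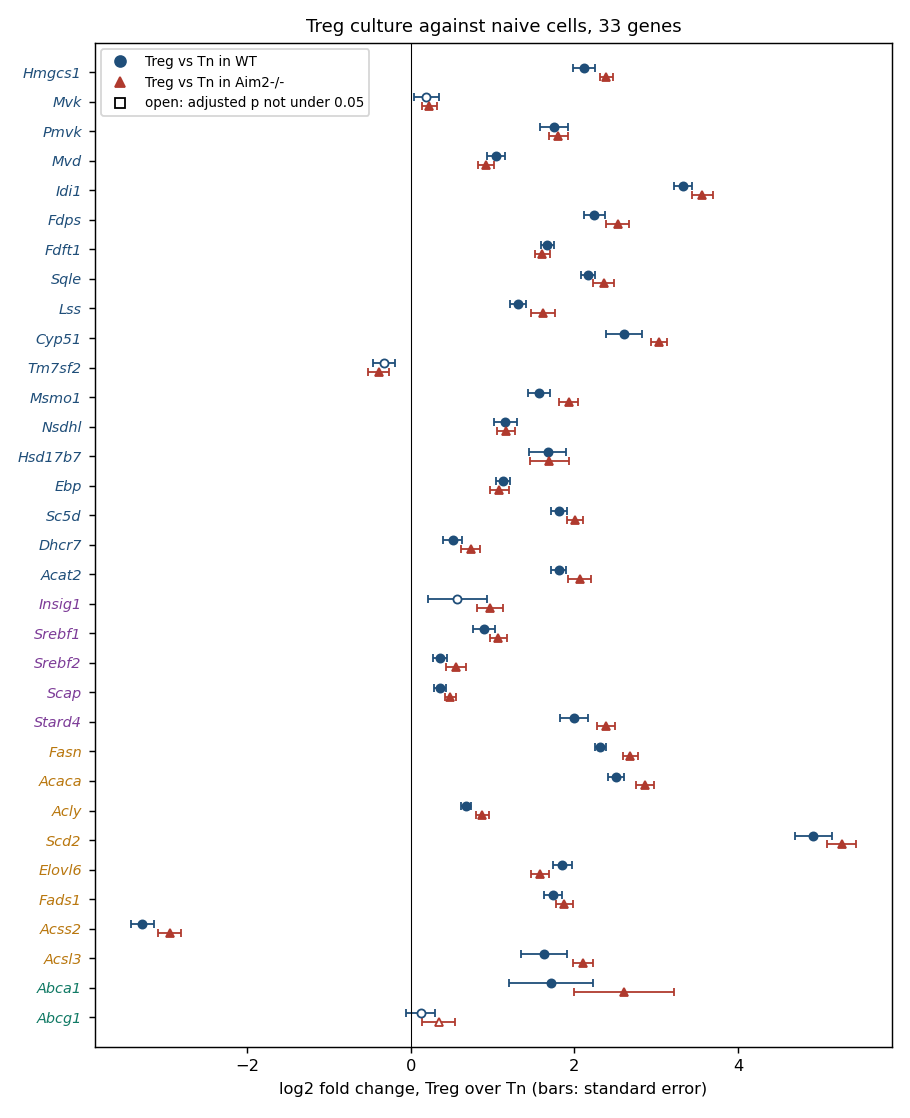
Log2 fold change of Treg over Tn (x axis, bars are 1 SE) for 33 of the 36 genes in WT (circles) and Aim2-/- cells (triangles), 4 libraries per group, with gene names coloured by role: cholesterol synthesis (blue), sterol sensing and transport (purple), fatty acid synthesis (brown) and sterol efflux (green). Nearly all points lie to the right of 0, from Scd2 at 4.92 in WT cells down to Tm7sf2 and Acss2 left of 0, and open symbols did not pass the test. Scd1, Fads2 and Acsl6, at or near 0 counts in Tn libraries, are left out.

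Of the cholesterol synthesis enzymes, 16 of 18 rose in WT cells (median log2 fold change 1.67) and 17 of 18 in Aim2-/- cells (median 1.75). Idi1, which isomerises isopentenyl diphosphate, rose the most. It was at 25.4, 24.5, 21.1 and 19.6 CPM in WT Tn libraries and at 208, 229, 262 and 245 CPM in WT Treg libraries, a log2 fold change of 3.33 ± 0.11 (adjusted p = 7.1e-09). Cyp51, the lanosterol demethylase, followed at 2.60 ± 0.22 in WT and 3.03 ± 0.10 in Aim2-/- cells. Its WT Tn libraries were at 57.0, 62.4, 33.6 and 32.3 CPM and its WT Treg libraries at 257, 299, 305 and 309 CPM. The gap between the states was far wider than the spread in either, and the naïve libraries themselves fell into a high pair and a low pair.

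Hmgcs1, the synthase that makes HMG-CoA and whose promoter held the sterol regulatory letters, was at 50.6, 53.0, 38.5 and 35.6 CPM in WT Tn libraries and at 188, 205, 212 and 195 CPM in WT Treg libraries. The log2 fold change was 2.12 ± 0.13 (adjusted p = 3.5e-07) in WT and 2.39 ± 0.08 in Aim2-/- cells. Fdps, the farnesyl diphosphate synthase at the branch point of the pathway, rose by 2.24 ± 0.13 on the log2 scale in WT cells. Sqle, the squalene epoxidase and a known control point, rose by 2.17 ± 0.09. All Treg libraries lay above all Tn libraries for these genes in both genotypes.

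The steps before and between them rose as well, but by less. On the log2 scale in WT cells the rise was 1.75 for Pmvk and 1.04 for Mvd, which phosphorylate and decarboxylate mevalonate products, 1.67 for Fdft1, the squalene synthase, and 1.31 for Lss, which closes the sterol ring. Among the late steps it was 1.82 for Sc5d, 1.68 for Hsd17b7, 1.57 for Msmo1, 1.15 for Nsdhl, 1.13 for Ebp and 0.51 for Dhcr7, the last enzyme of its branch. Acat2, the cytosolic thiolase that supplies acetoacetyl-CoA, rose by 1.81. The SE of these values lay between 0.08 and 0.23.

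Mvk and Tm7sf2 did not follow the others. Mvk, the mevalonate kinase, was at 14.9, 17.0, 12.5 and 10.9 CPM in WT Tn libraries and at 18.4, 17.9, 13.9 and 15.3 CPM in WT Treg libraries, so that the groups overlapped (log2 fold change 0.19 ± 0.16, adjusted p = 0.28). In Aim2-/- cells it was 0.23 ± 0.09 (adjusted p = 0.039), a call lost in 10 of 19 other settings. Tm7sf2, a sterol C14 reductase, had a log2 fold change of -0.32 ± 0.14 in WT cells, where it missed the threshold, and of -0.39 ± 0.13 in Aim2-/- cells (adjusted p = 0.016). Of the pathway's enzymes listed here, Tm7sf2 was the only one with a negative value in either genotype.

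**Figure D2:**
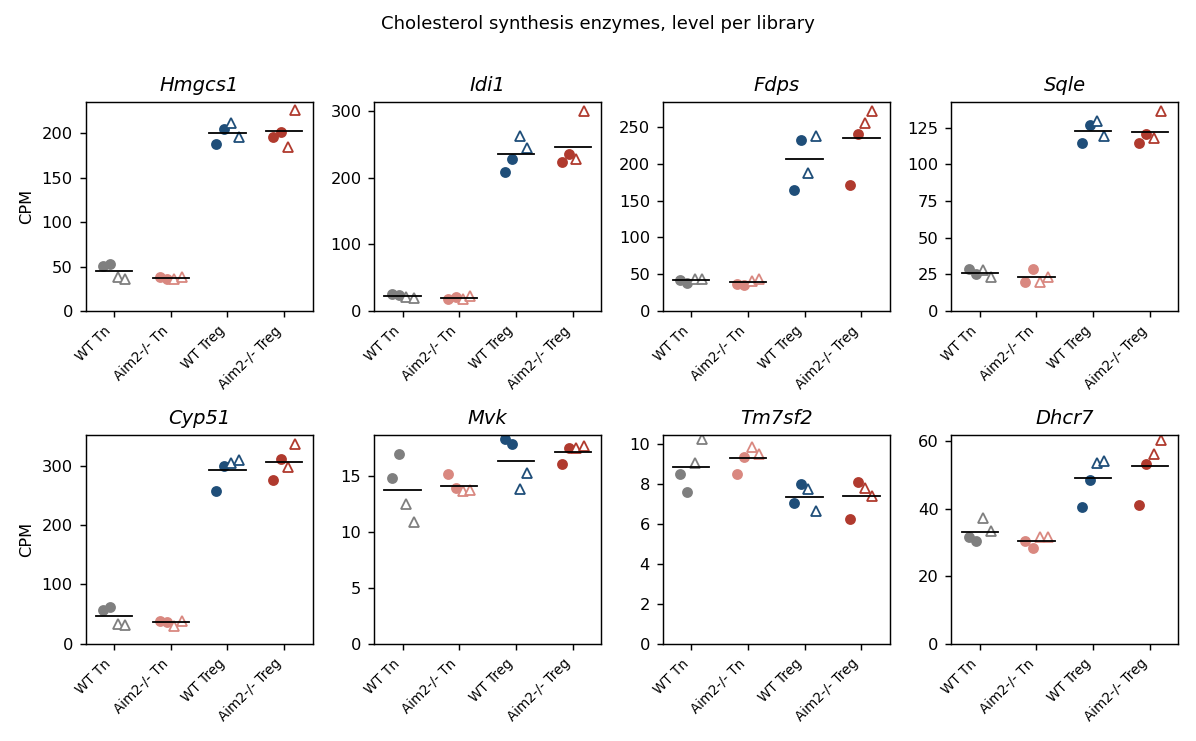
Level in CPM (y axis, from 0) of 8 cholesterol synthesis enzymes in each library of the 4 groups, with replicates 1 and 2 as filled circles, replicates 3 and 4 as open triangles and a bar at the group mean. Idi1, Hmgcs1, Fdps, Sqle and Cyp51 separate Treg from Tn libraries completely, as does Dhcr7 by a smaller distance, while Mvk and Tm7sf2 stay at similar levels.

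Of the 5 sensing and transport genes, 4 rose in WT cells (median log2 fold change 0.57) and 5 in Aim2-/- cells (0.97). Stard4, a sterol carrier, went from 24.4 to 42.1 CPM in WT Tn libraries to 130.1 to 143 CPM in WT Treg libraries (log2 fold change 1.99 ± 0.17). Srebf1 rose by 0.89 ± 0.14 on the log2 scale in WT cells, Srebf2 by 0.36 ± 0.09 and Scap by 0.36 ± 0.07, each without overlap between states. Per unit of exon length, Srebf2 was among the highest of the 36 genes before culture, at 44.2 ± 3.21 RPKM (SD, n = 4) in WT Tn cells, second to Acly at 46.0 ± 2.43 RPKM, and these 2 did not differ beyond their spread.

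Insig1, which retains SCAP and is itself an SREBP target, did not pass the test in WT cells (log2 fold change 0.57 ± 0.36, adjusted p = 0.18). Its WT Tn libraries were at 147, 155, 47.8 and 58.2 CPM and its WT Treg libraries at 156, 184, 149 and 139.8 CPM. WT Tn replicates 1 and 2 were thus inside the range of the cultured cells, and replicates 3 and 4 far below it. Fitted alone, replicates 3 and 4 gave a log2 fold change of 1.39 and replicates 1 and 2 gave 0.18. No label sets these pairs apart and the levels themselves part along them, so no p-value is read from these fits. In Aim2-/- cells, whose Tn libraries ran from 57.9 to 104 CPM, Insig1 rose by 0.97 ± 0.16 (adjusted p = 0.00023).

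The same pairs of WT Tn libraries parted for other genes, in both directions. Acaca was at 32.6, 34.6, 41.3 and 40.1 CPM and Acss2 at 62.0, 54.8, 78.6 and 73.1 CPM. Abca1 was at 10.2, 10.2, 19.9 and 17.8 CPM. Replicates 3 and 4 were the higher pair for these genes, and for Pmvk. Acsl3 was at 23.4, 23.8, 10.8 and 11.0 CPM, Stard4 at 38.1, 42.1, 26.3 and 24.4 CPM, and Hsd17b7 at 13.9, 15.8, 8.17 and 8.56 CPM. Replicates 1 and 2 were the higher pair for Acsl3, Stard4 and Hsd17b7. Summed markers parted the same way, at 265, 262, 111 and 118 CPM for the activated and Treg list, 423, 425, 321 and 325 CPM for the proliferation list and 5957, 6171, 4500 and 4435 CPM for the naïve T cell list. The first of these sums was carried by Ctla4 and Icos and the second by Pcna. Other markers went the other way, with Foxp3 at 2.00, 1.97, 2.93 and 3.98 CPM and Mki67 at 4.48, 5.12, 11.3 and 10.4 CPM. Neither the labels nor the methods name a batch that parts these replicates, and the part of these markers in the levels was not tested.

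**Figure D3:**
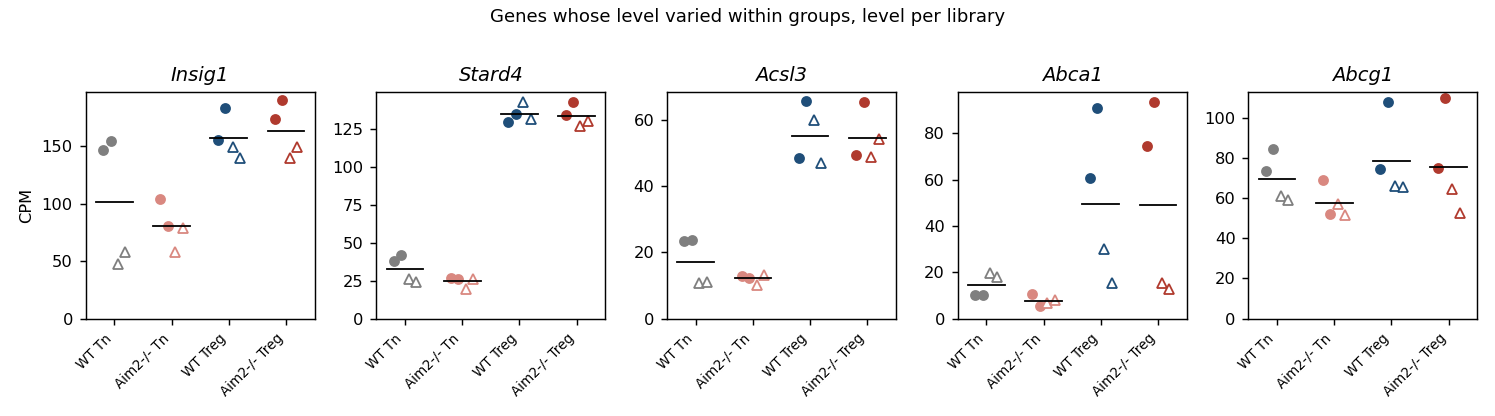
Level in CPM (y axis, from 0) of 5 genes in each library, with replicates 1 and 2 as filled circles, replicates 3 and 4 as open triangles and a bar at the group mean. In WT Tn libraries the filled circles lie above the triangles for Insig1, Stard4 and Acsl3 and below them for Abca1, and in Treg libraries the Abca1 circles (60.9 to 93.4 CPM) lie above the triangles (13 to 30.0 CPM) in both genotypes.

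Of the 11 genes of fatty acid synthesis and activation, 10 were higher and 1 lower in each genotype. Scd1, Fads2 and Acsl6 passed the filter through the Treg libraries alone, and the other 8 genes had a median log2 fold change of 1.80 in WT and 1.99 in Aim2-/- cells, with 7 higher and 1 lower in each. Fasn, the fatty acid synthase, was at 169, 191, 189 and 184 CPM in WT Tn libraries and at 877, 944, 969 and 998 CPM in WT Treg libraries (2.32 ± 0.07, adjusted p = 3.2e-09). Acaca, the carboxylase that supplies it with malonyl-CoA, rose by 2.51 ± 0.10 and Acly, which makes cytosolic acetyl-CoA from citrate, by 0.68 ± 0.06. Acly, which rose the least of the 3, already had 1 of the 2 highest levels per exon length in naïve cells.

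Desaturases, which place double bonds in acyl chains, were among the genes with the largest rise. Scd2 was at 35.0, 30.7, 44.4 and 36.7 CPM in WT Tn libraries and at 825, 1334, 952 and 1499.5 CPM in WT Treg libraries (log2 fold change 4.92 ± 0.23, adjusted p = 6.7e-08). At 211 ± 58.0 RPKM (SD, n = 4) it became the most abundant of the 36 genes per exon length in WT Treg cells, above Fasn at 86.5 ± 4.71 RPKM. Scd1, a paralogue with which reads can be shared, stayed near 0 in Tn libraries where Scd2 was read. It had 3 counts in all 4 WT Tn libraries together and 13636 in WT Treg libraries, a depth-scaled ratio of 3981 (95% counting interval 1362 to 19309). In Aim2-/- cells the counts were 8 and 16014, a ratio of 2150 (1091 to 4981). Fads2, the delta-6 desaturase, had 0 counts in every Tn library and was at least 60.2-fold higher in WT Treg libraries, where it reached 3.39 to 10.8 CPM.

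Within the cultured groups, the same replicates were low for all 3 of these desaturases. Scd1 was at 43.0, 143, 73.0 and 189 CPM in WT Treg libraries and at 46.4, 167, 172 and 195 CPM in Aim2-/- Treg libraries. Scd2 in Aim2-/- Treg libraries was at 842, 1385, 1353 and 1399 CPM, and Fads2 at 3.13, 10.6, 9.16 and 10.3 CPM. Replicate 1 had the lowest value of all 3 genes in both genotypes. Fads1, the delta-5 desaturase, rose by 1.74 ± 0.11 in WT cells and Elovl6, an elongase, by 1.85 ± 0.12.

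Of the genes that activate acyl chains, Acsl3 and Acsl6 rose and Acss2 fell. Acsl6, an acyl-CoA synthetase known mainly from brain and blood cells, had 0 counts in the WT Tn libraries and was at 37.2, 35.7, 28.4 and 20.4 CPM in WT Treg libraries, at least 242-fold higher. Acsl3 rose by 1.63 ± 0.28 on the log2 scale. Acss2, the synthetase that makes acetyl-CoA from acetate, was at 62.0, 54.8, 78.6 and 73.1 CPM in WT Tn libraries and at 7.90, 7.12, 7.43 and 6.24 CPM in WT Treg libraries. It fell by 3.28 on the log2 scale (SE 0.14, adjusted p = 2.8e-08) in WT cells and by 2.94 (SE 0.14) in Aim2-/- cells. Acss2 is a known SREBP target. Its promoter held the CCAAT letters, as did 37.4% of all promoter windows. The letters of the sterol regulatory element were not found there, and of the 28 genes matched only Hmgcs1 held them. The part of SREBP in this fall was not tested.

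**Figure D4:**
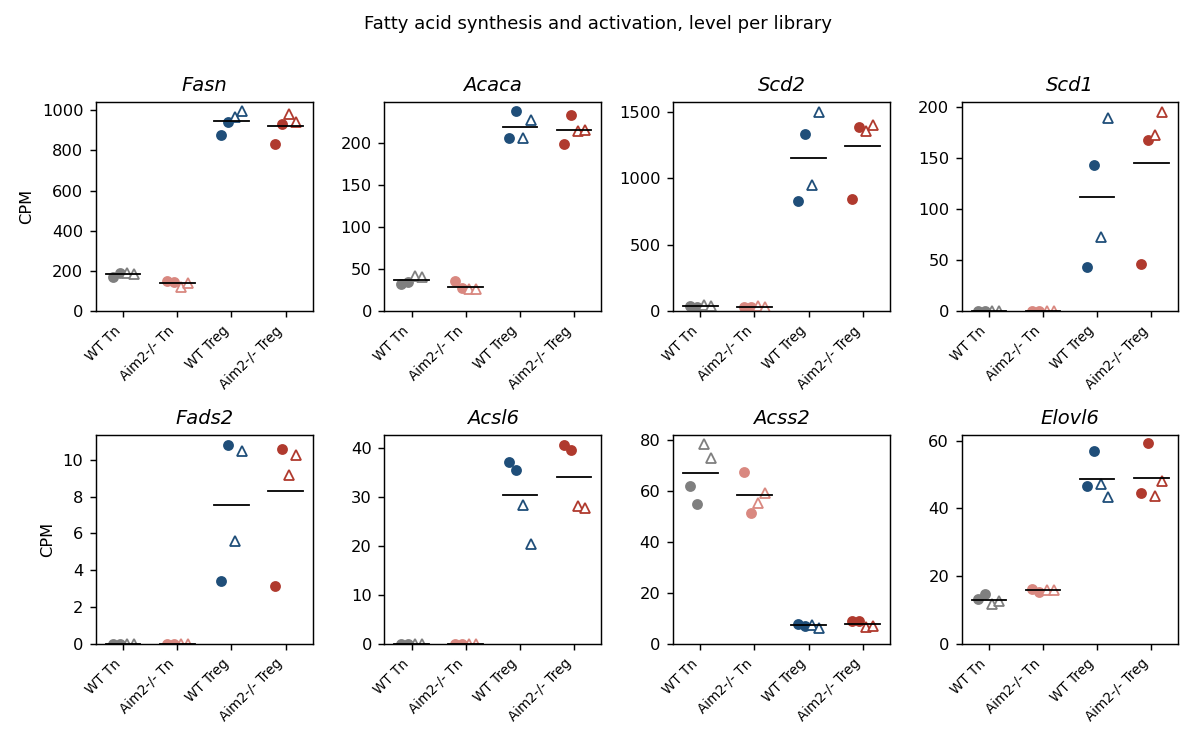
Level in CPM (y axis, from 0) of 8 genes of fatty acid synthesis and activation in each library, with replicates 1 and 2 as filled circles, replicates 3 and 4 as open triangles and a bar at the group mean. Scd1, Fads2 and Acsl6 are at or next to 0 in all Tn libraries, Acss2 alone falls in Treg libraries, and replicate 1 is lowest for Scd1, Scd2 and Fads2 in both Treg groups.

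The efflux transporters varied widely among replicates. Abca1 was at 10.2, 10.2, 19.9 and 17.8 CPM in WT Tn libraries and at 60.9, 91.0, 30.0 and 15.4 CPM in WT Treg libraries, which overlapped (log2 fold change 1.72 ± 0.52, adjusted p = 0.013, and 0.055 with no filter on low counts). The rise was larger in replicates 1 and 2, which alone gave 2.90, than in replicates 3 and 4, which alone gave 0.22. In Aim2-/- Treg libraries Abca1 was at 74.4, 93.4, 15.5 and 13 CPM, against 5.69 to 10.7 CPM in Tn, a called rise of 2.60 ± 0.61. It was 3.34 within replicates 1 and 2 and 0.87 within replicates 3 and 4. No label sets these pairs apart, so no p-value is read from fits within them. Abcg1 did not pass the test in either genotype (0.12 ± 0.18 in WT and 0.34 ± 0.20 in Aim2-/- cells), and its replicate 2 was the highest Treg library in both (108 and 109.7 CPM).

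Other genes of the 2 pathways moved in both directions. Of 24 further sterol pathway genes, 20 were tested in WT cells, of which 9 rose, 8 fell and 3 did not pass the test. These shares lay near those of all genes tested (37.7% higher and 39.2% lower). The risers included Tmem97, a sterol-responsive membrane protein (log2 fold change 3.58 ± 0.18), and Scarb1, a lipoprotein receptor (2.80 ± 0.11). The largest falls were in Mylip, which directs lipoprotein receptors to degradation (-4.18 ± 0.20), Nr1h3, which encodes LXR-alpha (-2.24 ± 0.25), and Npc2, which moves cholesterol out of lysosomes (-1.92 ± 0.08).

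Of 28 further fatty acid pathway genes, 23 were tested in WT cells, of which 14 rose, 6 fell and 3 did not pass, against the same 37.7% and 39.2%. Cd36, a fatty acid transporter, had 0 counts in WT Tn libraries and was at least 12.9-fold higher in Treg libraries, where it was at 1.19 to 2.11 CPM. Fabp5, a fatty acid binding protein, rose by 4.54 ± 0.25 and Dgat2, a triglyceride synthase, by 2.22 ± 0.42, whereas Dgat1, the other triglyceride synthase, changed by -2.26 ± 0.41, Elovl7 by -1.91 ± 0.32 and Lpin1 by -1.89 ± 0.32. The medians of the lists in WT cells were 0.30 for the sterol and 0.73 for the fatty acid genes. In Aim2-/- cells 11 of 21 sterol genes rose and 6 fell, and 15 of 23 fatty acid genes rose and 7 fell, against 39.1% higher and 40.2% lower of all genes tested.

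The loss of Aim2 gave no called difference in these genes in naïve cells. Of the 36 genes, 33 had enough counts to be tested, and edgeR called 0 of them, against 0.231% of all 13441 genes tested. At an unadjusted p under 0.05 there were 4 of 33, against 10.3% of all genes. By adjusted p, limma-voom called 0 of the 33 (30 of all 13441 genes) and DESeq2 1 (127 of all 13441 genes). The median log2 fold change (Aim2-/- over WT) was -0.15, beside 0.01 for all genes, and 25 of 33 values were negative, against 47.3% of all genes. Replicates 3 and 4 alone gave 17 of 33 negative and a median of -0.05, and replicates 1 and 2 alone 25 of 33 and -0.12. The 95% interval lay within 1 log2 unit of 0 for 30 of 33 genes, the exceptions being Insig1, Acsl3 and Abca1.

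The gene called by DESeq2 was Fasn. It was at 169, 191, 189 and 184 CPM in WT Tn libraries and at 149, 142, 121 and 139 CPM in Aim2-/- Tn libraries, so the groups did not overlap. The log2 fold change was -0.39 ± 0.09 (95% interval -0.60 to -0.17), with an unadjusted p of 0.0012 and an adjusted p of 0.23 in edgeR and an adjusted p of 0.0072 in DESeq2. Acaca, the gene before it in the pathway, was at 32.6, 34.6, 41.3 and 40.1 CPM in WT Tn and at 35.2, 27.1, 25.8 and 26.0 CPM in Aim2-/- Tn libraries (-0.36 ± 0.13, adjusted p = 0.42 in edgeR). These 2 groups overlapped through Aim2-/- replicate 1 alone.

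Abca1 had the largest difference by genotype in naïve cells, with 10.7, 5.69, 6.81 and 8.07 CPM in Aim2-/- Tn libraries beside the 10.2 to 19.9 CPM of WT Tn (-0.87 ± 0.27, adjusted p = 0.39 in edgeR). It was -0.30 within replicates 1 and 2 and -1.33 within replicates 3 and 4, and Fasn (-0.28 and -0.51) and Acaca (-0.08 and -0.64) also differed between these pairs of replicates. Elovl6 went the other way, at 11.6 to 14.6 CPM in WT Tn and at 15.3 to 16 CPM in Aim2-/- Tn libraries (0.30 ± 0.10, adjusted p = 0.41 in edgeR). Without overlap, Elovl6 was higher and Fasn, Fads1 and Srebf1 were lower in Aim2-/- Tn, 4 of 33 genes, against 6.84% of all genes tested. Summed erythroid markers also did not overlap between these groups (0.67 to 2.72 CPM in WT Tn and 3.62 to 5.34 CPM in Aim2-/- Tn), nor did B cell markers (1.54 to 2.14 and 2.42 to 3.04 CPM). Myeloid markers, at 12.2 to 19.7 and 13.1 to 14.6 CPM, overlapped. So did the activated and Treg markers, at 265, 262, 111 and 118 CPM in WT Tn and at 253, 215, 201 and 201 CPM in Aim2-/- Tn libraries. Their genotypes stood further apart in replicates 3 and 4. The part of these markers in the values above was not tested.

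**Figure D5:**
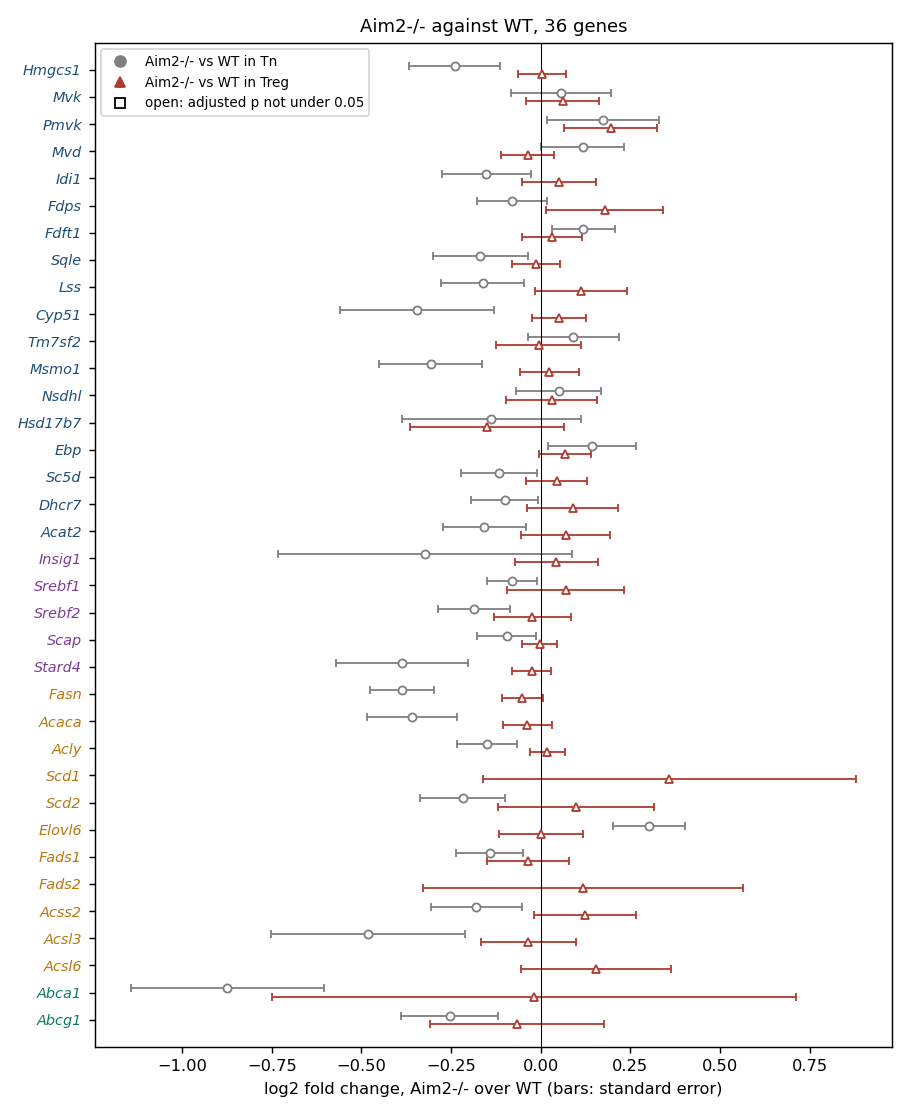
Log2 fold change of Aim2-/- over WT (x axis, bars are 1 SE) for the 36 genes in Tn (grey circles, 33 genes tested) and Treg cells (red triangles, 36 genes), 4 libraries per group, with gene names coloured by role as in the plot of Treg over Tn. All symbols are open, since none passed the test, and 25 of the 33 Tn values lie left of 0 while the Treg values gather around it.

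In cultured cells no difference by genotype was called either. In Treg cells 0 of 36 genes were called by edgeR, against 0.219% of 13221 genes tested, 0 had an unadjusted p under 0.05, against 2.31%, and neither limma-voom nor DESeq2 called any. The median log2 fold change was 0.03, beside 0.00 for all genes, with 23 values positive (50.1% of all genes). Single libraries decided this count, with 14 positive (median -0.01) without WT Treg replicate 1 and 32 (median 0.07) without WT Treg replicate 2, so no tilt is read from it. The groups overlapped for all 36 genes, and did not for 2.33% of genes tested. Fasn was at 877 to 998 CPM in WT and at 830.4 to 984 CPM in Aim2-/- Treg libraries (-0.05, 95% interval -0.19 to 0.09), and Hmgcs1 at 188 to 212 and 185 to 226 CPM (0.00, -0.16 to 0.17). The interval lay within 0.5 log2 units of 0 for 27 of 36 genes and within 1 unit for 33, the exceptions being Scd1, Fads2 and Abca1, whose Treg libraries varied widely within a group. For those 3 genes the interval held a 2-fold difference.

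Whether the rise with culture differed by genotype was tested as an interaction term over all 16 libraries. It called 0 of the 36 genes, against 0.0205% of 14669 genes tested, and neither limma-voom nor DESeq2 called any. The unadjusted p was under 0.05 for 2 genes, against 3.49% of all genes. They were Fasn (0.35 ± 0.11, unadjusted p = 0.0047, adjusted p = 1 in edgeR) and Acaca (0.33 ± 0.15, unadjusted p = 0.036). The fitted rise with culture was 2.69 in Aim2-/- and 2.32 in WT cells for Fasn, and 2.86 and 2.51 for Acaca, and the Treg levels of the genotypes overlapped. The median interaction was 0.18, beside 0.00 for all genes, and 27 of 36 values were positive, against 50% of all genes. These include Scd1, Fads2 and Acsl6, whose few Tn counts do not fix an interaction. With 10 counts required in every library, 33 genes remained, of which 26 were positive. Their median was 0.20, beside 0.01 for all genes tested that way. In replicates 1 and 2 alone, the interaction was positive for 27 of 36 genes (median 0.14). In replicates 3 and 4 alone, it was positive for 24 of 36 (median 0.07). Since both genotype comparisons enter this term, it is not independent of the values in naïve cells given above. No gene of the 2 wider lists was called for genotype in either state or for the interaction by edgeR, limma-voom or DESeq2. At an unadjusted edgeR p under 0.05 there were 5 of 21 sterol and 1 of 22 fatty acid genes in Tn, against 10.3% of all genes. In Treg there were 0 of 20 and 0 of 23, against 2.31%. For the interaction there were 1 of 22 and 0 of 23, against 3.49%.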

How the data were processed

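Stranded mRNA libraries were sequenced single-end, and the authors used STAR (GRCm38) for mapping and RSEM (GENCODE m15) for quantification, with versions and strand setting not given in the sources used here. The deposited values are expected counts of 53090 genes, 1 table for each library, not normalized. Groups and replicate numbers were taken from the titles, and the file names number some libraries differently. Members and lists were chosen with earlier results of these data known.

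Expected counts were rounded. Genes that reached 10 counts in 4 or more of the libraries compared were tested with the quasi-likelihood F test of edgeR 4.0.16 (R 4.3.3, robust, TMM, two-sided) on 8 libraries (16 for the interaction), with Benjamini-Hochberg adjustment over all genes tested and a threshold of 0.05. Values after ± are SE unless marked SD, and 95% intervals use the residual degrees of freedom of the libraries. CPM used TMM factors, and RPKM the union exon length of GENCODE M21 (98.9% of genes). An expected count is not whole where reads are shared between genes. This was so in 13 to 16 libraries for Hmgcs1, Idi1, Fdps, Fdft1, Lss, Cyp51, Tm7sf2, Acat2, Scap, Acaca, Scd1, Scd2 and Acsl3 and in 8 for Acss2, so part of their counts is an estimate. A fold against a group with no count above 3 in any library was taken from summed counts, against a floor of 3 counts per library where all were 0, and otherwise given as a ratio with an exact interval for counting error. Further lists held 25 sterol genes (24 matched) and 28 fatty acid genes, of which the 3 largest rises and falls in WT culture were to be named; 1 of them is not reported here. Replicate numbers were not taken as pairs, since not every same-numbered pair of libraries deviated together (r over 0.1) in any comparison.

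Alternatives were DESeq2 1.42.0, limma-voom 3.58.1, other scaling and filters, all 16 libraries in 1 fit, the replicate number as a block, replicates 1 and 2 or 3 and 4 alone or as a covariate, and leaving out each library. On simulated counts with 100 genes changed by 1 log2 unit among 13212, the Tn genotype test called 76, and 16 of 100 changed by 0.5. For Treg it called 89 and 48 among 13062. False calls numbered 3 in Tn and 12 in Treg. Changed genes were drawn from those with more counts, and simulated libraries varied independently. They held no parting of replicates 1 and 2 from 3 and 4, so recovery in the real libraries may differ.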

Additional observations from a re-analysis of the deposited data

Results flagged for a closer look

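In 6 of 138 groups of 4 libraries examined (4.35%), 1 library stood apart from the other 3 by Dixon's criterion, which chance alone meets in about 1 of 20 groups. The criterion finds 1 library apart from 3. It cannot flag WT Tn groups in which replicates 1 and 2 part from replicates 3 and 4, as for Insig1 and Acsl3. All 6 libraries flagged were Aim2-/-. In Tn cells, Mvk in replicate 1 was at 15.2 CPM (others 13.7 to 13.9), Acaca in replicate 1 at 35.2 CPM (others 25.8 to 27.1) and Stard4 in replicate 3 at 19.4 CPM (others 25.9 to 27.2). In Treg cells, Mvk in replicate 1 was at 16.1 CPM (others 17.5 to 17.7), Idi1 in replicate 4 at 299.9 CPM (others 223 to 235) and Scd2 in replicate 1 at 842 CPM (others 1353 to 1399). No interaction among the 36 genes passed the test.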

How the results depend on the processing

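With the replicate block, 31 of 36 genes were called higher and 1 lower in WT culture and 32 and 2 in Aim2-/- culture. Of all genes tested, that fit called 5126 of 13675 higher in WT culture and 5367 of 13713 in Aim2-/- culture. Same-numbered libraries had mean correlations of 0.23 in Tn, 0.43 in Treg, 0.06 in WT culture and 0.08 in Aim2-/- culture, and 3, 5, 3 and 2 of 8 libraries correlated best with their own number. The block called 0 genes for genotype in either state and for the interaction. In WT culture Abca1 lost its call with the block (1.48, adjusted p = 0.067 in edgeR) and Insig1 gained one (0.75, adjusted p = 0.047 in edgeR).

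No called value changed sign. For the genotype difference in Tn cells, 0 genes were called lower, but DESeq2 called 1 and the fit of all 16 libraries 1 (Fasn in both). Of all 13441 genes tested, these 2 settings called 127 and 64, against 31 in the main fit. Replicates 1 and 2 alone called 1 (Acsl3, -0.88), with 28 of all 13674 genes tested called. Replicates 3 and 4 alone called 3 (Fasn, Acaca and Abca1), with 499 of all 13503 genes tested called. No label sets these pairs apart, so calls within them are not read as results. In WT culture, 1 gene was lower, but 2 (Acss2 and Tm7sf2) with limma-voom, with all 16 libraries, with the 2 pairs of replicates as covariate, with replicates 3 and 4 alone and without WT Tn replicate 2. In Aim2-/- culture, 2 genes were lower, but 1 with no filter, with replicates 1 and 2 alone and with replicates 3 and 4 alone. The cause was not tested. Leaving out 1 library gave 28 to 31 genes higher and 1 to 2 lower in WT culture, 30 to 32 higher and 1 to 2 lower in Aim2-/- culture, and 0 for genotype and interaction. Of all genes, these fits called 4586 to 5077 higher among 13014 to 13240 tested in WT culture. In Aim2-/- culture they called 4887 to 5182 higher among 13024 to 13176. Without a Treg library, Scd1, Fads2 and Acsl6 could not be tested, having 10 counts in only 3 libraries. Without Aim2-/- Treg replicate 1 or 4, Tm7sf2 lost its call, and without replicate 4, Abcg1 gained one (0.53). Abca1 in WT culture also missed the threshold with no filter (adjusted p = 0.055 in edgeR). Among values not called, the sign changed in 16 of 627 in Tn, 85 of 684 in Treg, 52 of 933 for the interaction and 1 of 76 in WT culture. Depth limits Scd1, Fads2 and Acsl6 in Tn cells, where a genotype difference was not detectable.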
